A study of Rattus norvegicus with 2 samples.

Results

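The genes described here encode receptors for acetylcholine, the transmitter that splanchnic nerve fibers release onto chromaffin cells of the adrenal medulla (AM), and the enzyme that breaks it down. They were chosen by name: the nicotinic subunits Chrna3, Chrna4, Chrna5, Chrna7, Chrnb2 and Chrnb4, the muscarinic receptors Chrm1, Chrm3 and Chrm4, and the acetylcholinesterase Ache. All probe sets whose annotation names exactly 1 of these symbols were taken. Of the 10 genes, 9 were found, through 10 of the 31042 probe sets that are not array controls; over the whole array 14217 genes were named in this way. No probe set names Ache in the annotation used here, so no value is given for it.

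Expression was compared between the left AM of adult male Sprague-Dawley rats with recurrent hypoglycemia, 2RH30, and of rats with acute hypoglycemia, 2RS30. The 2RH30 rats received regular human insulin intraperitoneally at 2 IU/kg per injection over 3 days, and the 2RS30 rats saline on the same schedule. Injections were given 2 times daily, on day 3 only in the morning, and an overnight fast preceded the clamp. All rats were then clamped at 40 to 50 mg/dL on day 4 under insulin infusion and were killed 30 min after the glucose target was reached, so both groups were hypoglycemic and insulin-infused at sampling. RNA of 6 rats was pooled for each group, and each pool was read on 1 Affymetrix array. There is thus no replicate of either group, no test was possible and no p-value is given; each difference below is that between a pair of pools, and baseline and 60 min samples were not analysed here. Values are log2 signals per probe set, and a difference is always 2RH30 minus 2RS30 on that scale.

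As background, nicotinic receptors are cation channels made of 5 subunits that open on binding acetylcholine and depolarize the chromaffin cell, which leads to calcium entry and to catecholamine secretion. In autonomic ganglia and in chromaffin cells the alpha3 and beta4 subunits are the typical partners, with alpha5 as an accessory subunit that does not form channels by itself. The alpha4 and beta2 subunits make the most common receptor of the brain, and alpha7 can form channels alone. Muscarinic receptors act through G proteins: Chrm1 and Chrm3 couple to Gq, phospholipase C and calcium stores, and Chrm4 couples to Gi and lowers cAMP.

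Chrna5, Chrna3 and Chrnb4 are neighbours on rat chromosome 8, where they follow one another among protein-coding genes of the GRCr8 annotation between Psma4 and Ube2q2. The sequences upstream of these clustered genes are shown as background, together with that of Chrnb2, which had the lowest difference. A link between these sequences and the array differences was not tested. Each is the 250 bases before the start given by RefSeq for GRCr8, 5′ to 3′ on the strand of the gene. Capitals mark the GC box, GGGCGG on either strand, a motif that binds Sp1-type factors:
Chrnb4 (chr8:64333110-64333359, minus strand): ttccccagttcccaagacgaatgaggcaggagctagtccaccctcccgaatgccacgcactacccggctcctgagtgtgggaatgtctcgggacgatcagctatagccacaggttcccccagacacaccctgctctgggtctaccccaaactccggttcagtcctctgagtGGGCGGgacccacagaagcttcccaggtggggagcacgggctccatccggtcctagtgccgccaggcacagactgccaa
Chrna3 (chr8:64311252-64311501, minus strand): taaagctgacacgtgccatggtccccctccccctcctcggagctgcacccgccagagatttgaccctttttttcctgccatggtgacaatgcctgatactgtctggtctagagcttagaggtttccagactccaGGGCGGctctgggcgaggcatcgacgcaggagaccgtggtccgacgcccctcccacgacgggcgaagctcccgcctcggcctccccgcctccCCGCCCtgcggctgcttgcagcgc
Chrna5 (chr8:64265629-64265878, plus strand): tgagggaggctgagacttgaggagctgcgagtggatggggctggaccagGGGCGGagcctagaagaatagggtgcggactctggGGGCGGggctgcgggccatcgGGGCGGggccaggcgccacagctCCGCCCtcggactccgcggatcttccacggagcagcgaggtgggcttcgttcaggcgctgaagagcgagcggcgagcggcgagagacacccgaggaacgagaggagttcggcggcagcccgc
Chrnb2 (chr2:177487307-177487556, minus strand): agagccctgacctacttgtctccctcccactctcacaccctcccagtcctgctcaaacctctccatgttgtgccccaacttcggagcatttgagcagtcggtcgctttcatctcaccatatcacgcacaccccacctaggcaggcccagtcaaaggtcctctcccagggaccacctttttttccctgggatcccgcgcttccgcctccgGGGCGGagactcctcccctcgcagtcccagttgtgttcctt

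The Chrna5 window holds 4 GC boxes, that of Chrna3 holds 2, and those of Chrnb4 and Chrnb2 hold 1 each. Over all 10 genes, Ache included, 9 windows hold at least 1 GC box, and Chrm1 is the one that does not. Of 27457 RefSeq promoters of the same length 32.4% hold it, and of the 18999 that belong to protein-coding genes 40.3%. The 10 windows have a G and C content of 58.8% to 75.6%, and no comparison with promoters of like content was made. The core of the cAMP response element, TGACG, lies in 3 of the 10 windows, those of Chrm1, Chrm3 and Ache, against 19.0% of all promoters. The E-box, CANNTG, lies in 8 of 10 against 65.2%, and the Egr motif GCGNGGGCG in 2 of 10, Chrm3 and Ache, against 4.53%. Among promoters of protein-coding genes, 21.1% hold the cAMP response element core, 62.8% the E-box and 5.76% the Egr motif. Motifs were searched on both strands and overlapping matches were counted separately. An Egr match can overlap a GC box. These are matches of letters and no binding was measured.

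At 30 min the receptor genes had differences of both signs. As deposited, 5 of the 10 probe sets had a higher value in 2RH30 and 5 a lower one, with a median difference of 0.090 against 0.017 over all probe sets. Chrnb4 was the 1 probe set that was 2-fold or more higher in 2RH30, where 10.4% of all probe sets were. Chrnb2 and 1 of the probe sets of Chrm3 were 2-fold or more lower, 2 of 10, where 12.1% of all probe sets were. Both shares are near those of the whole array and with so few probe sets say little about the receptors as a class. With 1 probe set per gene, 1 of 9 genes was higher and 2 were lower, against 11.5% and 9.62% of all genes.

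Differences on these arrays depend on the level of the probe set. When all probe sets are sorted by level into 20 bins, the median difference runs from -0.38 at the dim end to 0.49 at the bright end, and values are spread more widely in 2RH30 (SD 1.57) than in 2RS30 (SD 1.28). The hybridization controls, transcripts of other organisms added in fixed amounts, are bright, yet all read lower in 2RH30. The controls bioB, bioC, bioD and cre differ by -3.16, -2.48, -1.24 and -0.32. Their differences also rise with level, from bioB at 13.15 in 2RS30 to cre at 14.90, but lie below 0, unlike the bin median at the bright end. Receptor differences are given also after a lowess curve through the trend by level was subtracted, called level-adjusted. As a further yardstick, different probe sets of 1 gene had differences with an SD of 0.80 at mean levels under 7 and of 0.55 at 7 or more. Animals and pools do not enter that SD, and a value beyond it is not an established difference. Level-adjusted, 1 receptor probe set was 2-fold or more higher and 2 were lower, against 8.99% and 10.2% of all probe sets, but the higher one was then Chrm4 and not Chrnb4. By gene these counts were also 1 and 2, against 8.95% and 9.31% of all genes. Probe sets that read under the array median in both pools are called dim, which holds for 4 of the 10: Chrna4, Chrna5, Chrm4 and 1 of those of Chrm3. Among the 6 that are not dim, 1 was 2-fold or more higher and 2 were lower as deposited, against 15.4% and 9.46% of all probe sets that are not dim.

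**Figure D1:**
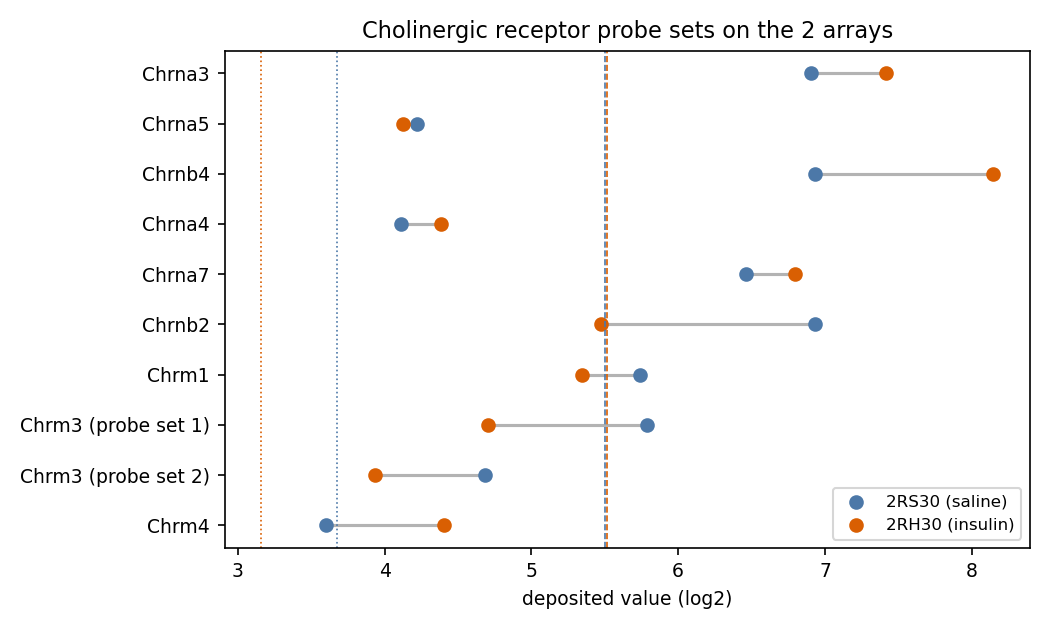
Deposited value (log2, horizontal axis) of each of the 10 receptor probe sets (vertical axis) in 2RS30 (blue) and 2RH30 (orange), 1 pool of 6 rats each. Dashed lines mark the median of each array (5.50 and 5.51) and dotted lines its 5th percentile (3.67 in 2RS30 and 3.16 in 2RH30); Chrnb4 lies to the right in 2RH30, and Chrnb2 and both probe sets of Chrm3 lie to the left.

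The subunits of the ganglionic receptor were compared first. Chrnb4, which encodes beta4, read 6.93 in 2RS30 and 8.15 in 2RH30, which is 1.21 higher, or 2.32-fold. It was bright on both arrays, at percentiles 87.7 and 94.97 of all probe sets. Level-adjusted, the difference was 0.82, or 1.76-fold, which is under 2-fold and above the yardstick at that level, an SD of 0.56 level-adjusted. Of the probe sets in the same level bin, 15.3% were 2-fold or more higher as deposited and 6.12% level-adjusted. Passing 2-fold upwards is thus not rare there as deposited. The suffix of this probe set marks it as matching several transcripts of its gene, so isoforms are read together.

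Chrna3, which encodes the ligand-binding alpha3, read 6.91 in 2RS30 and 7.42 in 2RH30, a gain of 0.51 that became 0.17 when level-adjusted. Both lie within the SD between probe sets at that level. Chrna5, the accessory subunit, read 4.22 and 4.12, a difference of -0.09 that turned to 0.31 when level-adjusted. Its probe set was dim, at percentiles 14.3 and 21.0. Of the clustered genes, Chrnb4 is thus the one whose difference exceeds the yardstick in both forms. The difference of Chrnb4 exceeds that of Chrna3 by 0.70 as deposited and by 0.65 level-adjusted, a gap that was not tested.

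Since fewer chromaffin cells and less RNA per cell cannot be told apart in pooled tissue, markers of the cells present were read beside these values. All 9 chromaffin markers were measured and not dim, at percentile 62.7 or more on both arrays, and each was higher in 2RH30 as deposited, by 0.23 to 0.95 with a median of 0.51. Th and Dbh, enzymes of catecholamine synthesis, differed by 0.51 and 0.95 (level-adjusted -0.08 and 0.45) and Chga, a granule protein, by 0.88 (level-adjusted 0.36). Pnmt, which makes epinephrine, differed by 0.31 and had the lowest level-adjusted difference of the 9, -0.27. Level-adjusted, the median was 0.09, with 5 of the 9 above 0 and 4 below. The sum of their linear signals was 8036 in 2RS30 and 11439 in 2RH30. Adrenal cortex markers were also read in tissue labelled as medulla: 7 of 9 were measured, all at percentile 97.7 or more on both arrays. They were higher in 2RH30 by 0.33 to 0.80, with a median of 0.60 (level-adjusted 0.04), and their linear sums were 11438 and 17970. Star, the cholesterol carrier of steroid synthesis, read 11.81 and 12.51, and Cyp11b1, which makes corticosterone, 10.98 and 11.46. Transcripts typical of cortical cells were thus read in both pools next to those of chromaffin cells. The part of either cell type in the receptor differences was not tested. With 1 probe set per gene, the deposited difference of Chrnb4 is larger than that of any of these markers, and that of Chrna3 lies within their range. A second probe set of the cortex marker Nr5a1, a transcription factor of steroid-producing cells, differed by 1.69 (level-adjusted 1.39), which is above Chrnb4, while the one used in the list differed by 0.33 (level-adjusted -0.18).

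**Figure D2:**
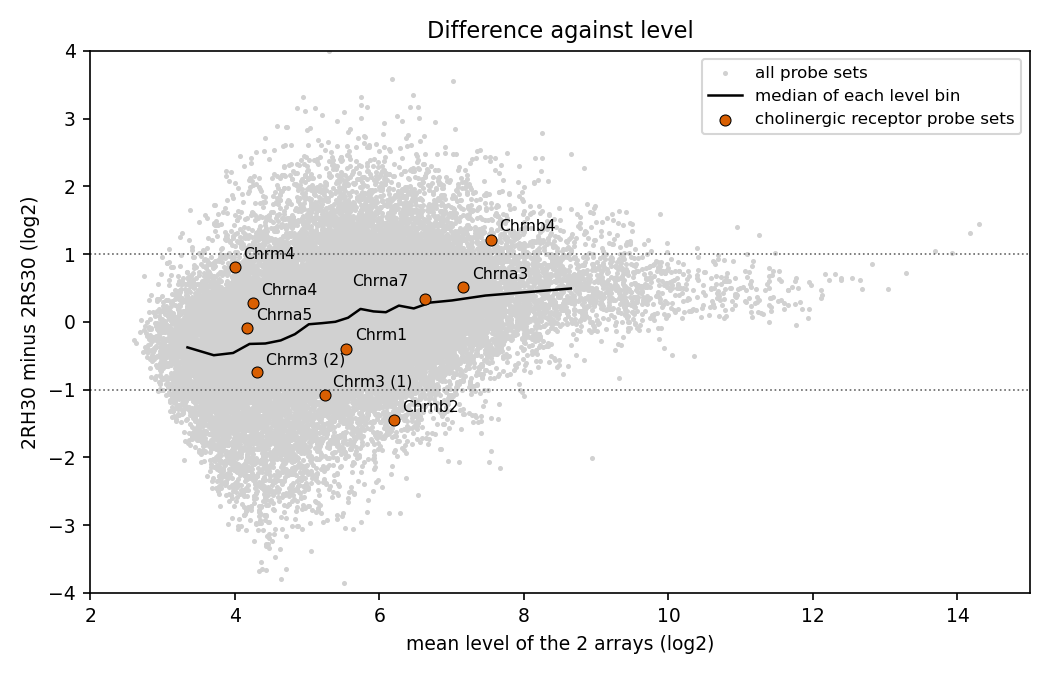
The 2RH30 minus 2RS30 difference (vertical axis, log2) plotted by level, taken as the average over both arrays (horizontal axis, log2), for all 31042 probe sets (grey) and the 10 receptor probe sets (orange), with the bin medians over 20 bins of level (black line) and dotted lines at a 2-fold difference. Chrnb4 lies above the bin medians, Chrnb2 and Chrm3 (1 and 2 for its probe sets) lie below them, and Chrna3 and Chrna7 lie close to them.

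Chrnb2, which encodes beta2, had the lowest difference of the receptor genes. It read 6.93 in 2RS30 and 5.48 in 2RH30, so that it differed by -1.45, or 2.74-fold lower, and level-adjusted by -1.65, or 3.14-fold lower. It stood at percentile 87.7 of the 2RS30 array and at 49.0 of the 2RH30 array. Of the probe sets in its level bin 5.48% passed 2-fold downwards as deposited and 8.18% level-adjusted, and its difference is 1.82 times the yardstick as deposited and 2.06 times level-adjusted. Only 1 probe set reads Chrnb2, so no other probe set of the gene can be set beside it. The difference of Chrnb4 minus that of Chrnb2 was 2.67 as deposited, 2.45 after quantile normalization and 2.47 level-adjusted. As deposited, this pair is the highest and the lowest of the 10 receptor probe sets, so the gap is their whole range. It was not tested and has no background value beside it. The probe sets of beta4 and beta2 had differences of opposite sign between these pools under each of these scalings.

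Chrna4, the usual partner of beta2 in the brain, read 4.11 in 2RS30 and 4.38 in 2RH30. The difference of 0.27, level-adjusted 0.66, lies within the SD between probe sets, and the probe set was dim, at percentiles 12.3 and 26.0. Chrna7, a channel with high calcium permeability, read 6.46 and 6.80, at percentiles 78.2 and 80.4. Its difference of 0.34 became 0.08 when level-adjusted, the smallest level-adjusted difference of the 10 probe sets.

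Of the muscarinic receptors, Chrm1 and Chrm3 read lower in 2RH30 on all their probe sets. Chrm3 is the one gene with 2 probe sets. The first read 5.79 in 2RS30 and 4.70 in 2RH30, so it differed by -1.08, level-adjusted -1.07, which is 2.12-fold and 2.09-fold lower. The other was dim and read 4.68 and 3.93, a difference of -0.75, level-adjusted -0.38. Both thus have the same sign, while the size differs and 1 of them is past 2-fold. In the level bin of the first probe set 12.2% of probe sets were 2-fold or more lower, and in that of the dim one 25.6%.

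Chrm1 read 5.74 in 2RS30 and 5.34 in 2RH30, and its difference of -0.40, level-adjusted -0.48, is within the SD between probe sets. Chrm4, the Gi-coupled receptor, went the other way, from 3.60 to 4.40. Its difference was 0.80 as deposited and 1.24 level-adjusted, or 2.36-fold. In 2RS30 it read under the array's 5th percentile, 3.67, and the probe set was dim, so the size of this difference is uncertain. Of the probe sets in its level bin 8.51% passed 2-fold upwards when level-adjusted, and 3.16% as deposited.

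**Figure D3:**
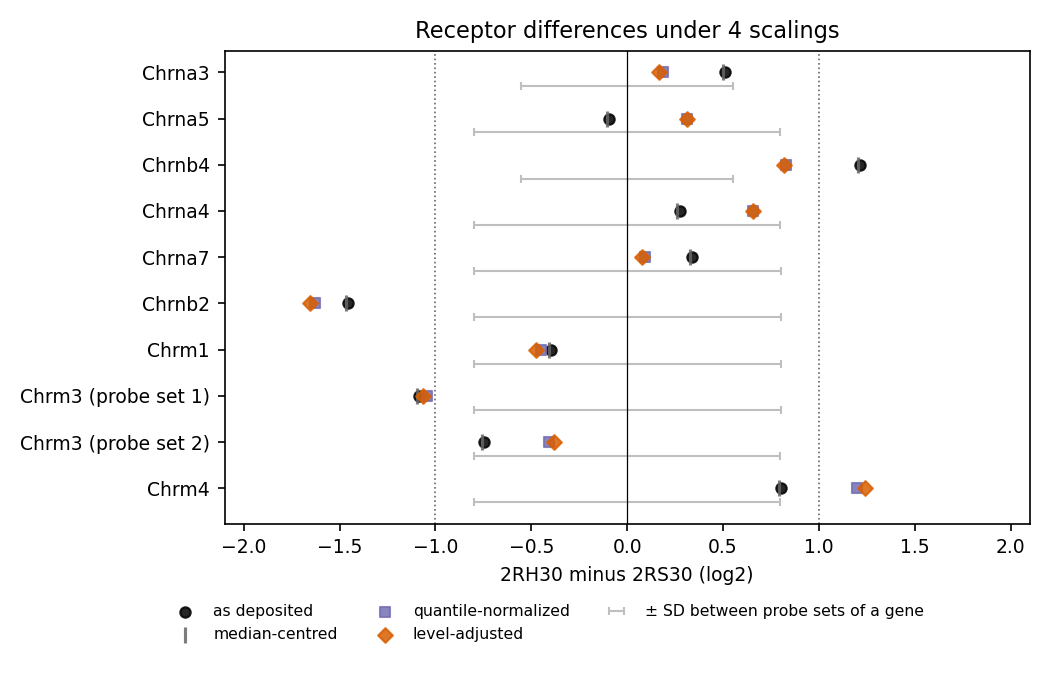
The 2RH30 minus 2RS30 difference (horizontal axis, log2) of each receptor probe set (vertical axis) as deposited, after centring on the array median, after quantile normalization and level-adjusted. Grey bars around 0 span the yardstick SD and dotted lines mark 2-fold; Chrnb2 and the first probe set of Chrm3 stay past 2-fold in all 4 forms, Chrnb4 and Chrm4 pass it in 2 forms each, and Chrna5 is the gene whose sign changes.

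The remaining nicotinic subunits, those of muscle, neurons and other cells, were read as a list. All 10 were measured. As deposited, 4 were above 0 and 6 below, with 0 past 2-fold upwards and 1 downwards, against 11.5% and 9.62% of all genes. The median difference was -0.31 (level-adjusted -0.25), against 0.11 and 0.017 over all genes. Without dim probe sets the median turned to 0.13. Chrne, the epsilon subunit of the adult muscle receptor, was lowest, from 5.88 to 4.60, a difference of -1.28 (level-adjusted -1.26). Chrng, the gamma subunit of the fetal muscle receptor, was highest as deposited, from 5.71 to 6.58, a difference of 0.87 (level-adjusted 0.68). Muscle markers beside them gave a median of -0.08 (level-adjusted -0.35) over 5 genes, 1 of which, the dim Myh4, was 2-fold or more lower at -2.46; their part in these values was not tested. The other muscarinic receptors, Chrm2 and the Gq-coupled Chrm5, differed by 0.35 and 0.38 (level-adjusted 0.47 and 0.20).

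Genes that make, load and take up acetylcholine in the nerve endings were all dim, 3 of 3. As background, the cell bodies of the splanchnic fibers lie in the spinal cord. Slc5a7, the choline transporter, read 4.89 in 2RS30 and 2.83 in 2RH30, and so differed by -2.06 (level-adjusted -1.61), but the 2RH30 value lies at percentile 1.53 of its array, so its size is uncertain. Chat, which makes acetylcholine, read 3.65 and 4.15, a difference of 0.50 (level-adjusted 0.95), and Slc18a3, the vesicular transporter, differed by -0.13 (level-adjusted 0.09). In both forms 0 of the 3 passed 2-fold upwards and 1 downwards, where 11.5% and 9.62% of all genes did as deposited and 8.95% and 9.31% level-adjusted. Among relatives and anchors of acetylcholinesterase 2 of 3 were measured, both dim. Bche, a related esterase, differed by 0.64 (level-adjusted 1.03) and Colq, a collagen tail that anchors the enzyme, by -0.14 (level-adjusted -0.15).

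Proteins that help nicotinic receptors assemble or that bind them at the membrane were read next, and 6 of 9 were measured. As deposited 1 was 2-fold or more higher and 1 lower, against 11.5% and 9.62% of all genes, and level-adjusted also 1 and 1, against 8.95% and 9.31%. The median was 0.20 (level-adjusted 0.16); without dim probe sets it was 0.54, with 0 genes 2-fold or more lower. Rapsn, which clusters the muscle receptor, differed by 1.01 (level-adjusted 1.07), while its second probe set gave 2.60 (level-adjusted 2.84), where the 2RS30 value of 3.39 is under the 5th percentile. Lypd6b, a modulator of the Ly6 family, was lowest at -1.60 (level-adjusted -1.18) and was dim.

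Of the 19 genes listed for muscarinic signal transduction 18 were measured, of which 3 were 2-fold or more higher and 0 lower as deposited, against 11.5% and 9.62% of all genes, and 2 and 0 level-adjusted, against 8.95% and 9.31%. The median was 0.29 and, level-adjusted, 0.0090. Gnao1, a G protein alpha subunit of the Gi/o class, was highest, from 3.77 to 6.19, a difference of 2.43 (level-adjusted 2.55). Only 1 probe set reads Gnao1, and its 2RS30 value lies at percentile 6.86, so the size of this difference is uncertain. The paper lists Gnao1 as lower in rats with recurrent hypoglycemia than in saline-injected rats, both at baseline and at its last time point. The difference read here for Gnao1 has the opposite sign, and the reason was not tested. Rgs4, which the paper also lists as lower at both times, differed here by -0.24 (level-adjusted -0.61), the same sign. Its second probe set was dim and differed by -0.47 (level-adjusted -0.23). Gnai1 was lowest as deposited at -0.77 (level-adjusted -0.37), and Prkca, a protein kinase C, was lowest level-adjusted at -0.97 (deposited -0.68). The other genes past 2-fold as deposited, Rgs2, which limits Gq signals, and Plcb3, a phospholipase C, differed by 1.11 and 1.05 (level-adjusted 0.61 and 0.95). A second probe set of Rgs2 differed by 0.38 (level-adjusted -0.08). Grk3, a receptor kinase, was the other gene past 2-fold when level-adjusted, at 1.11 (deposited 0.95), and was dim. Prkca, Rgs2, Rgs4, Plcb3 and Grk3 were named after their values were seen.

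**Figure D4:**
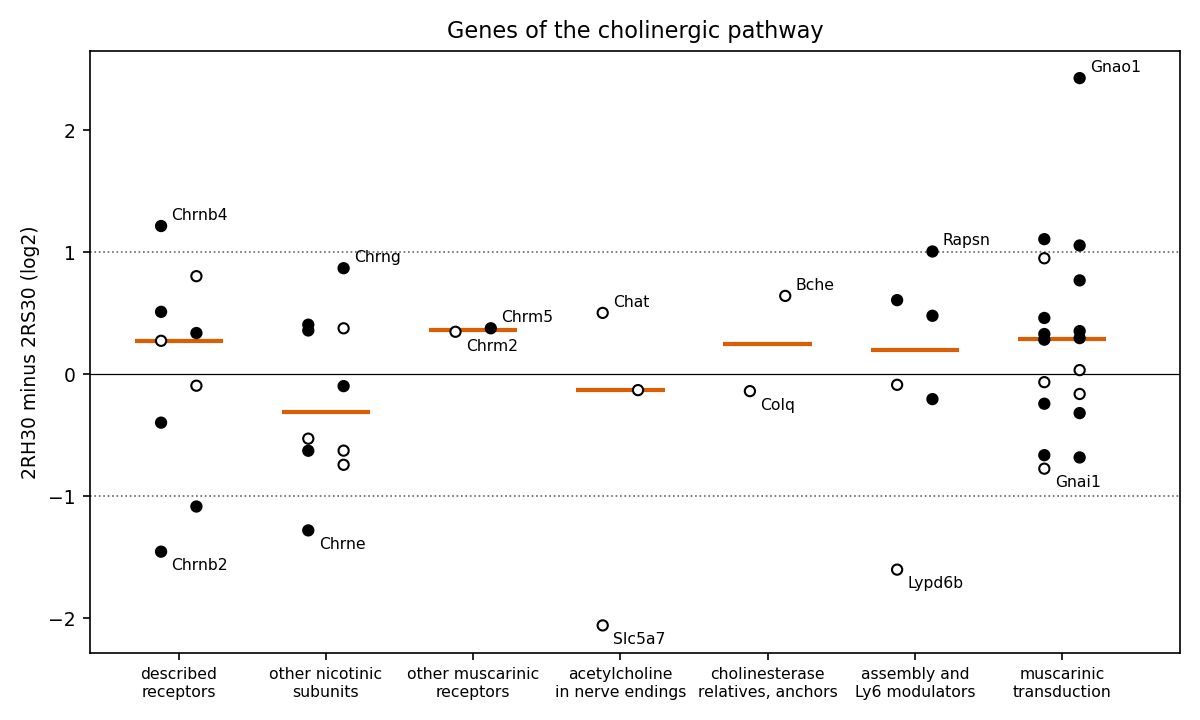
The 2RH30 minus 2RS30 difference (vertical axis, log2) as deposited for the 9 measured receptor genes and for the genes of 6 further lists (horizontal axis), 1 probe set per gene. Filled points are not dim, open points are dim, orange bars are list medians and dotted lines mark 2-fold; the highest and lowest gene of each list is named, and Gnao1 at 2.43 and Slc5a7 at -2.06 are the extremes.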

How the data were processed

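Each sample is RNA pooled from 6 rats and read on 1 Affymetrix Rat Genome array. The authors deposited log2 values per probe set; the log2 scale is read from their range, and the submitters' processing notes name Affymetrix Expression Console, while the study's methods name GCRMA for its own analysis. The sources used here do not give how the deposited values were summarized. Of 31099 rows, 57 array controls were set aside. Of the others, 20826 name 1 gene, 436 several and 9780 none; symbols were updated through RefSeq (GRCr8), which matched 20758 gene numbers. A gene with several probe sets was read from that with the highest mean level. The level adjustment subtracted a lowess curve (fraction 0.3, 3 iterations). It was run on simulated data with a made-up straight trend, less spread than here and differences larger than those of the receptors. That run checks the code and does not show how well differences of the present size are recovered. The threshold was the 2-fold of the study. No test was fitted, since 1 array per group leaves no residual spread, and the number of arrays limits the precision. All receptor genes were named. Of the further lists of the cholinergic pathway the highest and lowest gene were named, and in lists of at most 10 genes every gene past 2-fold. Genes of the cell marker lists were named without a fixed rule. The genes and lists were chosen with earlier results of these data known. Alternatives were other scalings, thresholds and choices of probe set. Scripts ran in Python 3.11.15 with statsmodels 0.14.6 for lowess, pandas 2.3.3, numpy 2.4.6 and, for plots, matplotlib 3.10.9.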

Additional observations from a re-analysis of the deposited data

How the results depend on the processing

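Over the receptor probe sets, the count that was 2-fold or more higher, 1, was 0 without probe sets that can match several transcripts, which leaves out Chrnb4 and Chrna4, 2 at 1.5-fold and 0 at 3-fold. The count that was lower, 2, was 0 at 3-fold. The share of all probe sets is not given for these settings, so these counts cannot be compared with the whole array. The median over probe sets, 0.090, was -0.246 without those matching several transcripts. The median over genes, 0.27, was -0.0943 under that choice and -0.0299 without dim probe sets; fewer probe sets enter each of these. The other 18 alternative values of these counts and medians, with a median over probe sets of -0.0299 without dim ones among them, moved less: counts stayed within 1.5 times, and medians within the SD between probe sets divided by the root of their number. All 49 alternative values of single receptor genes stayed within the SD between probe sets, although Chrnb4 fell under 2-fold and Chrm4 passed it when level-adjusted or quantile-normalized. Many of these could not differ: for a gene with 1 probe set, the choices of probe set return the deposited value. Centring shifts every gene by the same small amount. Only the level adjustment and quantile normalization could thus move such a gene by much. For the other lists, 25 alternative values stayed and 5 moved. Without dim probe sets the median of the other nicotinic subunits turned from -0.31 to 0.13. That of the assembly and Ly6 list went from 0.20 to 0.54 and its count of lower genes from 1 to 0. The share of all genes without dim probe sets is not given, so this count also has no background. Level-adjusted, the cholinesterase list had 1 higher gene, Bche, in place of 0, where 8.95% of all genes were higher. The level-adjusted median of the transduction list went from 0.29 to 0.0090. No paired analysis was possible because a single pool stands for each group, and for the same reason no replicate could be left out. Signal over background is not given for the deposited values, so no lower limit can be stated for the 4 dim probe sets.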

Other observations

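Markers of further cell types that can lie in or near the medulla were read in the same pools, with 1 probe set per gene. Over all genes 11.5% were 2-fold or more higher as deposited and 9.62% lower, so counts in lists this short say little. Of the Schwann and sustentacular cell list 4 of 6 were measured, with a median difference of -0.05 (level-adjusted 0.11) and 0 genes past 2-fold in either direction. Of the endothelial list 3 of 4 were measured, with a median of 0.20 (level-adjusted 0.38) and 0 past 2-fold. Of the macrophage and leukocyte list 4 of 5 were measured, with a median of -0.35 (level-adjusted -0.19); Cd68, a lysosomal protein of macrophages, was the 1 gene 2-fold or more higher, at 1.60 (level-adjusted 1.61), and 0 were lower, against 11.5% and 9.62% of all genes. Csf1r, a growth factor receptor of macrophages, and Ptprc, a leukocyte surface phosphatase, went the other way, at -0.77 and -0.71 (level-adjusted -0.89 and -0.79), and a second, dim probe set of Ptprc differed by -2.13 (level-adjusted -1.68). Of the neuronal list all 6 were measured, with a median of 0.04 (level-adjusted 0.29) and 1 gene, Slc5a7, 2-fold or more lower. Neurofilament genes in that list, Nefl, Nefm and Nefh, differed by 0.02, 0.51 and 0.07 (level-adjusted -0.09, 0.49 and 0.49).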
